A study of Homo sapiens with 6 samples.

Results

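The antioxidant response was followed here through 9 genes, which were chosen by name: KEAP1 and NFE2L2, which regulate the response, and 7 of its best known targets, GCLC, GCLM, SLC7A11, TXNRD1, SRXN1, NQO1 and HMOX1. They are 9 of the 24551 gene symbols measured, and all 9 had a mean of at least 1 FPKM (mapped fragments corrected for the length of the transcript and for the size of the library) over the libraries, as did 11865 genes in total. The 6 RNA-Seq libraries were made from polyadenylated RNA of the human lines DU145, a prostate carcinoma line taken from a brain metastasis, and 769-P, a line from a renal cell adenocarcinoma. In each line, 1 library came from cells given a control siRNA (NC), 1 from cells given SPOP siRNA 1 (si1) and 1 from cells given SPOP siRNA 2 (si2). The design asks how loss of SPOP, which encodes an adaptor of a ubiquitin ligase, alters gene expression in the 2 kinds of cancer cell.

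KEAP1 and SPOP are built on the same plan, since each uses a BTB domain to bind the scaffold CULLIN3 and another domain to hold the protein that is to be ubiquitinated. In resting cells KEAP1 holds NRF2, the transcription factor encoded by NFE2L2, and leads it to the proteasome. When oxidants or electrophiles modify KEAP1, NRF2 accumulates, pairs with a small MAF protein and binds antioxidant response elements near genes for glutathione synthesis, thioredoxin reduction and quinone and heme breakdown. Levels of mRNA do not report the amount of NRF2 protein.

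The sequences below show matches to the core of such an element close before a start site of genes in this set. The core holds the letters NRF2 is known to read. The letters TGACNNNGC, where N is any base, were searched on both strands of the RefSeq promoter windows. These run from 250 bases before to 50 bases after a start site, and only the 250 bases before it were searched. No other motif was searched, although the first 4 letters also open the sites of AP-1 factors. The windows, of build GRCh38.p14, were placed on GRCh37 by exact match, and the coordinates are those of GRCh37. KEAP1, NFE2L2, NQO1, GCLC, GCLM, TXNRD1 and SRXN1 were in the table with 10 windows, and 4 of these windows, of KEAP1, GCLM and TXNRD1, held a match. Of all 35116 windows, 10.9% held one. HMOX1 and SLC7A11 had no window, and bases further upstream were not searched. A gene without a match here was thus not shown to lack the element. Each line gives the match in capitals with its flanking bases in lower case, 5′ to 3′ on the strand that reads the motif as written.
GCLM, chr1:94375002-94375030, plus strand: tggaagacaaTGACTAAGCagaaatcgta
KEAP1, chr19:10613460-10613488, plus strand: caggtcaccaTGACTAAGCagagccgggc
KEAP1, chr19:10613483-10613511, minus strand: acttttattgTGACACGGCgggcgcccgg
TXNRD1, chr12:104609448-104609476, plus strand: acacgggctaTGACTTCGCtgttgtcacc
TXNRD1, chr12:104680698-104680726, minus strand: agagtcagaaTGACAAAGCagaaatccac

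The GCLM and the first KEAP1 stretch carried the same 9 letters and shared a run of 13, ATGACTAAGCAGA, and these 9 letters stood in 30 of all the windows. The match lay 34 bases before the start site in GCLM, and 31 and 54 bases before it in KEAP1. In TXNRD1 the matches belonged to different start sites, 99 bases before the one at 104609557 and 102 bases before the one at 104680810. Both KEAP1 stretches and the second of TXNRD1 lay whole within an annotated exon of the same gene in GENCODE, because other transcripts begin further upstream. The first TXNRD1 stretch lay outside its exons, and 11 of the 29 bases of the GCLM stretch lay inside one. A match of these letters is a description of the window and not a site of binding.

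SPOP itself had 17.2% and 18.4% of the control value in DU145 with si1 and si2, and 13.2% and 12.0% in 769-P. FPKM holds no read counts, so depth was known only relative to the 769-P control and ranged from 0.680 to 1.41. It was 1.17 in the DU145 control and 0.687 and 0.680 in the DU145 si1 and si2 libraries, against 1.07 and 1.41 in those of 769-P. Depth thus went with knockdown in DU145, and its part in the changes was not tested. The DU145 control and the 769-P si2 library stood apart at low values, with 287 and 237 of 366 olfactory receptor genes above 0, against 3 to 5 in the others. Their mean over these genes was 0.345 and 0.227 FPKM, which is below every value of the 9 genes. Of the line markers, PAX8 had 106 to 126 FPKM in 769-P and 1.10 to 1.47 in DU145, and EPCAM had 27.6 to 36.2 FPKM in DU145 and 2.95 to 4.92 in 769-P. The prostate markers KLK3 and HOXB13 were at or near 0 in DU145, and CA9 and NDUFA4L2, which mark clear cell renal carcinoma, were listed at 0 in 769-P. The leukocyte markers PTPRC and CD3E were at or near 0 in both lines. CD68, which is also made outside leukocytes as a lysosomal protein, had 20.7, 30.0 and 37.1 FPKM in the control, si1 and si2 libraries of DU145 and 54.6, 62.9 and 74.7 FPKM in those of 769-P, above the control with both siRNAs. The summed level of the 5 endothelial and fibroblast markers was 3.20 to 3.93 FPKM in DU145 and 1.79 to 10.3 in 769-P. In 769-P its lowest value was in the control, where COL1A1 had 1.71 FPKM against 9.68 with si1 and 7.36 with si2. PECAM1 was listed at 0 in every library, and the part of these markers in the results was not tested.

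In 769-P, NFE2L2 and all 7 targets were lower than the control with both siRNAs and KEAP1 was higher with both. This made 8 of the 9 lower, against 39.5% of all genes tested. The target TXNRD1 had 41.0% and 34.8% of its control value, and it was the 1 gene of the set past 2-fold with both siRNAs. In DU145 the same directions held for KEAP1, NFE2L2 and 5 of the targets, while NQO1 and GCLC were above the control with si2. There 6 of the 9 were lower with both siRNAs, against 22.2% of all genes. No change of the set differed between the lines at an adjusted p under 0.05 (limma). For knockdown, no gene of the set had an adjusted p under 0.05 in either line (limma, Benjamini-Hochberg over 11865 genes). In level, 6 of the 9 differed between the lines by that limit, against 42.1% of all genes tested. The targeted gene SPOP did not pass the knockdown test either (limma, adjusted p = 0.134 for DU145 and 0.0948 for 769-P), so a count of 0 does not show that the genes were unaltered. The fit estimates its spread from the 2 siRNAs of each line and assumes that the lone control varies as much. Its p-values measure only the spread between these libraries, which no label ties to separate cultures. In bulk RNA, fewer cells of a type and less RNA per cell cannot be told apart. All changes below are on the log2(FPKM + 1) scale, which understates those of low genes such as SLC7A11, and the limits of 1.5-fold and 2-fold were set on it.

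**Figure D1:**
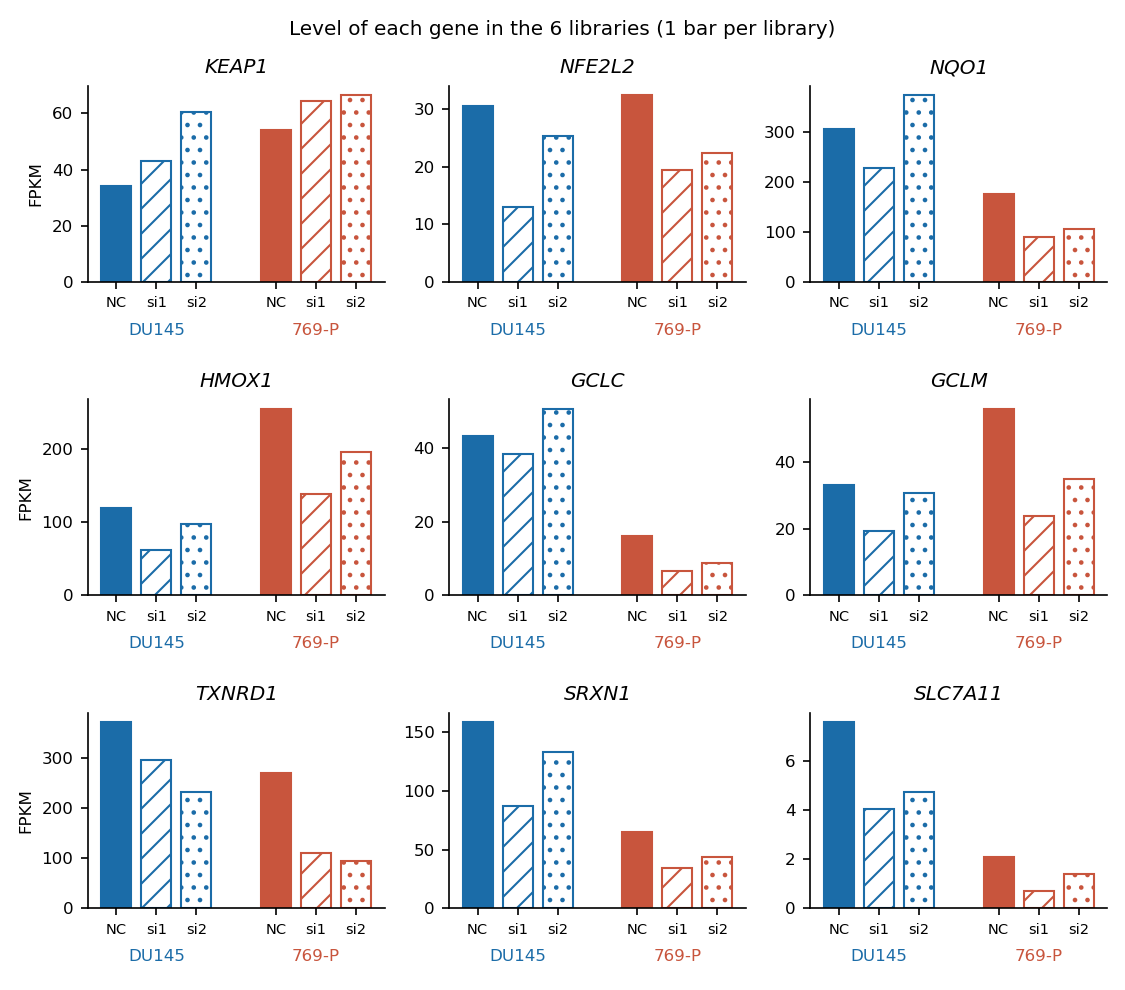
Level of each of the 9 genes in FPKM (vertical axes from 0, 1 scale per gene) in the control (NC, filled), si1 (hatched) and si2 (dotted) library of DU145 (blue) and 769-P (red), 1 bar per library. In 769-P both siRNA bars stand below the control for every gene but KEAP1, as for TXNRD1 with 270 FPKM in the control and 111 and 93.8 with the siRNAs.

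Of the regulators, KEAP1 (chromosome 19, 10596801 to 10614234 of GRCh37, minus strand) had 34.2 FPKM in the DU145 control, 43.0 with si1 and 60.4 with si2. The 769-P libraries held 54.0, 64.4 and 66.4 FPKM of it for control, si1 and si2. It was thus higher than the control in all 4 siRNA libraries, the only gene of the set for which this held, against 20.1% of all genes tested. The siRNA libraries had 51.7 ± 12.3 FPKM (SD, n = 2) in DU145 and 65.4 ± 1.42 (SD, n = 2) in 769-P. The change from limma was 0.56 with a standard error of 0.27 in DU145 (adjusted p = 0.801), and 0.27 with the same standard error in 769-P (adjusted p = 0.825). Neither was larger than the spread of the fit allows.

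NFE2L2 (chromosome 2, 178083395 to 178257484, minus strand), which encodes NRF2, had 30.5 FPKM in the DU145 control, 13.0 with si1 and 25.4 with si2. For 769-P the level was 32.4 FPKM under the control siRNA, 19.3 under si1 and 22.3 under si2. Each siRNA library was below the control of its line, and in DU145 the 2 siRNAs differed more from each other than si2 did from the control. With si1, 42.6% of the control value was left in DU145, which was the lowest value of the 9 genes with that siRNA there. The change from limma was -0.71 in DU145 (standard error 0.41, adjusted p = 0.824) and -0.61 in 769-P (standard error 0.41, adjusted p = 0.746). The ratio of KEAP1 to NFE2L2 FPKM rested on both genes and was 1.12, 3.31 and 2.38 in the DU145 control, si1 and si2 libraries. In 769-P the ratio was 1.67, 3.33 and 2.97, so that all 4 siRNA libraries lay above both controls. This ratio was not tested.

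The glutathione genes come next. GCLC and GCLM encode the catalytic and the modifier subunit of glutamate-cysteine ligase, the rate-limiting enzyme of glutathione synthesis, and SLC7A11 encodes the cystine transporter xCT, which supplies its cysteine. GCLC (chromosome 6, 53362139 to 53481768, minus strand) had 43.3 FPKM in the DU145 control, 38.4 with si1 and 50.8 with si2. Levels in 769-P were 16.1 FPKM (control), 6.70 (si1) and 8.87 (si2). In DU145 the siRNA libraries lay on both sides of the control, and in 769-P both lay below it, at 41.6% and 55.1% of its value. The change from limma was 0.03 (standard error 0.29, adjusted p = 0.992) in DU145 and -0.97 (standard error 0.29, adjusted p = 0.693) in 769-P. The difference of these changes was 1.0 with a standard error of 0.41, and its adjusted p was 0.999.

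GCLM (chromosome 1, 94350755 to 94375012, minus strand) had 33.3 FPKM in the DU145 control, 19.4 with si1 and 30.8 with si2. The 769-P libraries held 56.2, 23.7 and 34.9 FPKM of it for control, si1 and si2. All 4 siRNA libraries were lower than their control, and the DU145 si2 library was at 92.7% of it. In 769-P the 2 subunits had nearly the same shares of the control value left with si1, 41.6% for GCLC and 42.2% for GCLM. The limma change of GCLM in 769-P was -0.94 (standard error 0.37, adjusted p = 0.709), and in DU145 it was -0.43 (adjusted p = 0.873).

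SLC7A11 (chromosome 4, 139085251 to 139163503, minus strand) had 7.57 FPKM in the DU145 control, 4.03 with si1 and 4.73 with si2. For 769-P the level was 2.08 FPKM under the control siRNA, 0.720 under si1 and 1.41 under si2. It was the lowest of the 9 genes in each of the 6 libraries, and all 4 siRNA libraries were below their control. The DU145 siRNA libraries were at 53.2% and 62.5% of the control, nearer to each other than for GCLC or GCLM. With limma the change was -0.67 in DU145 and -0.60 in 769-P, each with a standard error of 0.31 and an adjusted p of 0.801 and 0.718.

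TXNRD1 encodes the cytosolic thioredoxin reductase, a selenoprotein that passes electrons from NADPH to thioredoxin, and SRXN1 encodes sulfiredoxin, which repairs overoxidized peroxiredoxins. TXNRD1 (chromosome 12, 104609557 to 104744085, plus strand) had 371 FPKM in the DU145 control, 296 with si1 and 231 with si2. Levels in 769-P were 270 FPKM (control), 111 (si1) and 93.8 (si2). The 769-P siRNA libraries lay far closer to each other, at 102 ± 11.8 FPKM (SD, n = 2), than to the control. Its changes there were -1.28 and -1.51, the lowest of the 9 genes with each siRNA. The limma change in 769-P was -1.40 (standard error 0.25, adjusted p = 0.519), and in DU145 it was -0.50 (standard error 0.25, adjusted p = 0.811). The difference between the lines was 0.89 with a standard error of 0.35 (unadjusted p = 0.0468, adjusted p = 0.999 from limma), so that it was not shown that the lines differ.

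SRXN1 (chromosome 20, 627259 to 633844, minus strand) had 158 FPKM in the DU145 control, 86.9 with si1 and 133 with si2. The 769-P libraries held 65.2, 34.6 and 43.9 FPKM of it for control, si1 and si2. All 4 siRNA libraries were below their control, and the shares left were alike in the lines with si1, at 54.9% in DU145 and 53.1% in 769-P. With si2 they were 84.1% and 67.4%. The limma change was -0.55 in DU145 and -0.73 in 769-P, each with a standard error of 0.32 and an adjusted p of 0.826 and 0.709.

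NQO1 encodes a quinone reductase that uses NADPH or NADH, and HMOX1 encodes heme oxygenase 1, which opens the heme ring and is also repressed by BACH1. NQO1 (chromosome 16, 69740899 to 69760571, minus strand) had 306 FPKM in the DU145 control, 229 with si1 and 374 with si2. For 769-P the level was 175 FPKM under the control siRNA, 89.4 under si1 and 105 under si2. As with GCLC, the DU145 siRNA libraries lay on both sides of the control and the 769-P siRNA libraries lay below it. The limma change was -0.07 in DU145 and -0.84 in 769-P, each with a standard error of 0.33 and an adjusted p of 0.982 and 0.709. Their difference of 0.78 had a standard error of 0.47 (adjusted p = 0.999 from limma).

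HMOX1 (chromosome 22, 35776354 to 35790207, plus strand) had 119 FPKM in the DU145 control, 61.7 with si1 and 97.6 with si2. Levels in 769-P were 255 FPKM (control), 138 (si1) and 195 (si2). All 4 siRNA libraries were below their control and si1 gave the lower value in both lines. The limma change was -0.61 in DU145 and -0.63 in 769-P, each with a standard error of 0.36 and an adjusted p of 0.830 and 0.733. HMOX1 was the target whose mean change differed least between the lines, by 0.02 with a standard error of 0.51.

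**Figure D2:**
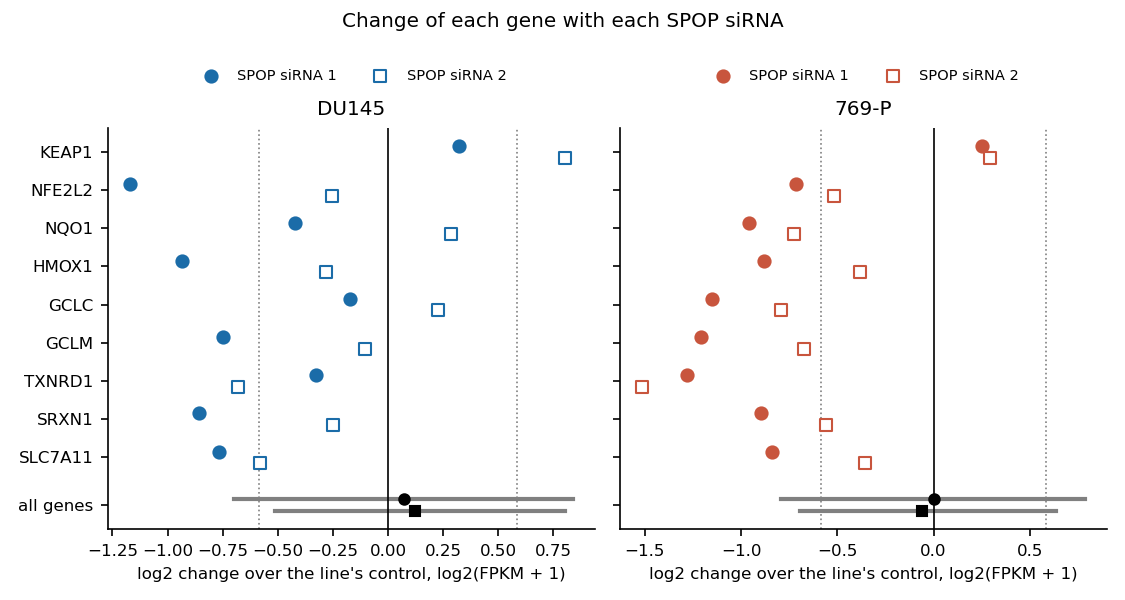
Change of each gene on the log2(FPKM + 1) scale over the control of its line (horizontal axis) with si1 (filled circles) and si2 (open squares) in DU145 (left) and 769-P (right), with dotted lines at 1.5-fold and grey bars from the 5th to the 95th percentile of all genes tested around their median. In 769-P all genes but KEAP1 lie left of 0 with both siRNAs, and si1 lies left of si2 except for TXNRD1.

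Counted over the set in 769-P, 8 of the 9 genes were below the control with both siRNAs, against 39.5% of all genes tested. At 1.5-fold the count was 4 (NQO1, GCLC, GCLM and TXNRD1) against a background of 3.73%, and at 2-fold it was 1 (TXNRD1) against 0.565%. KEAP1 was the 1 gene above the control with both siRNAs, where the background was 31.5%, and none reached 1.5-fold in that direction, with a background of 3.6%. The median change of the 7 targets over both siRNAs was -0.84, and that of all genes was -0.03. The siRNA libraries of a line share its control, so a high control value alone would place both below it.

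In DU145, 6 of the 9 genes were below the control with both siRNAs (NFE2L2, HMOX1, GCLM, TXNRD1, SRXN1 and SLC7A11), against 22.2% of all genes. None passed 1.5-fold or 2-fold with both, where the background was 1.19% and 0.329%. KEAP1 was above with both, against 43.5%, and none reached 1.5-fold upward, against 4.72%. The median change of the 7 targets was -0.50, and that of all genes was 0.09. Taking all 4 siRNA libraries together, 6 genes were below their control in each, against 13.6% of all genes. The median of all genes was shifted by 0.12 in the DU145 si2 library, and when each library was centred on its median, SLC7A11 passed 1.5-fold in DU145 and GCLM no longer did in 769-P. The sides counted here did not change with that centring.

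Tested for knockdown with limma, 0 of the 9 genes had an adjusted p under 0.05 in DU145 and 0 in 769-P, where 0.135% and 0.101% of all genes passed. At an unadjusted p under 0.05 the counts were 0 of 9 in DU145, against 6.27% of all genes, and 4 of 9 in 769-P (NQO1, GCLC, GCLM and TXNRD1), against 6.97%. For the difference of the change between the lines, 0 genes of the set passed an adjusted p of 0.05, with 0.169% of all genes passing. Only TXNRD1 had an unadjusted p under 0.05 there, against 2.74% of all genes.

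The 2 siRNAs differed in the same way across the set. The value with si1 was below that with si2 for 8 of the 9 genes in DU145, against 55.1% of all genes, and for 8 of 9 in 769-P, against 40.4%. These were the same 8 genes, and for all genes the share with si1 below si2 in both lines was 28%. TXNRD1 was the exception in both lines, with the lower value under si2. For the 7 targets the median change in DU145 was -0.75 with si1 and -0.25 with si2, and in 769-P it was -0.96 with si1 and -0.67 with si2. SPOP itself differed little between the siRNAs, with 2.77 and 2.96 FPKM in DU145 and 1.53 and 1.39 FPKM in 769-P. Differences between the siRNAs have 1 library each per line and were not tested, and the 769-P si2 library is also the one with the raised low values.

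The standing levels of the set were compared between the lines next. In the DU145 control the order by FPKM, a scale per transcript length, was TXNRD1, NQO1, SRXN1, HMOX1, GCLC, KEAP1, GCLM, NFE2L2 and SLC7A11, over a 49.0-fold range. In the 769-P control it was TXNRD1, HMOX1, NQO1, SRXN1, GCLM, KEAP1, NFE2L2, GCLC and SLC7A11. In DU145, KEAP1 passed GCLC in both siRNA libraries and NQO1 passed TXNRD1 with si2, so these neighbours were not separated. GCLM and NFE2L2, at 33.3 and 30.5 FPKM in the control, differed by less than the SD between the siRNAs of either, which was 8.08 and 8.77 FPKM. That SD does not measure their order within a library, and GCLM was above NFE2L2 in each of the 6 libraries. TXNRD1 ranked 127 and NQO1 ranked 152 among the 11865 genes in the DU145 control, and TXNRD1 ranked 204 in the 769-P control. SLC7A11 ranked far lower, at 6592 in DU145 and 9492 in 769-P.

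By limma, comparing the lines over control and siRNA groups, 6 of the 9 genes differed at an adjusted p of 0.05, against 42.1% of all genes tested. Higher in DU145 were GCLC by 1.87 (standard error 0.20, adjusted p = 0.00173), SLC7A11 by 1.44 (adjusted p = 0.00501), SRXN1 by 1.35 (adjusted p = 0.00724), NQO1 by 1.19 (adjusted p = 0.0124) and TXNRD1 by 0.90 (adjusted p = 0.0112). HMOX1 was higher in 769-P by a value coded as -1.08 for DU145 minus 769-P (standard error 0.25, adjusted p = 0.0211). These values average control and siRNA groups, so the knockdown changes of each line enter them. In the controls alone, the FPKM ratio of DU145 to 769-P was 2.69 for GCLC, 3.64 for SLC7A11 and 2.43 for SRXN1. It was 1.75 for NQO1, 1.38 for TXNRD1 and 0.466 for HMOX1. For TXNRD1 the lines overlapped, with 231 FPKM in the DU145 si2 library and 270 in the 769-P control. KEAP1 at -0.50, GCLM at -0.48 and NFE2L2 at -0.13 did not pass, with adjusted p of 0.0846, 0.195 and 0.737. The 2 subunits of glutamate-cysteine ligase stood in opposite order in the lines, with 43.3 FPKM of GCLC to 33.3 of GCLM in the control of DU145, and 16.1 to 56.2 in that of 769-P. All 3 DU145 libraries lay above all 3 769-P libraries for NQO1, GCLC, SRXN1 and SLC7A11, 4 of 9 genes against 35.1% of all genes. The reverse held for HMOX1, 1 of 9 against 21.2%. The number passing fell to 2 without the 769-P si1 library and to 3 without the 769-P si2 library, and was 8 with the siRNA number as a block. Tissue of origin, donor and culture all differ between the lines and cannot be told apart.

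**Figure D3:**
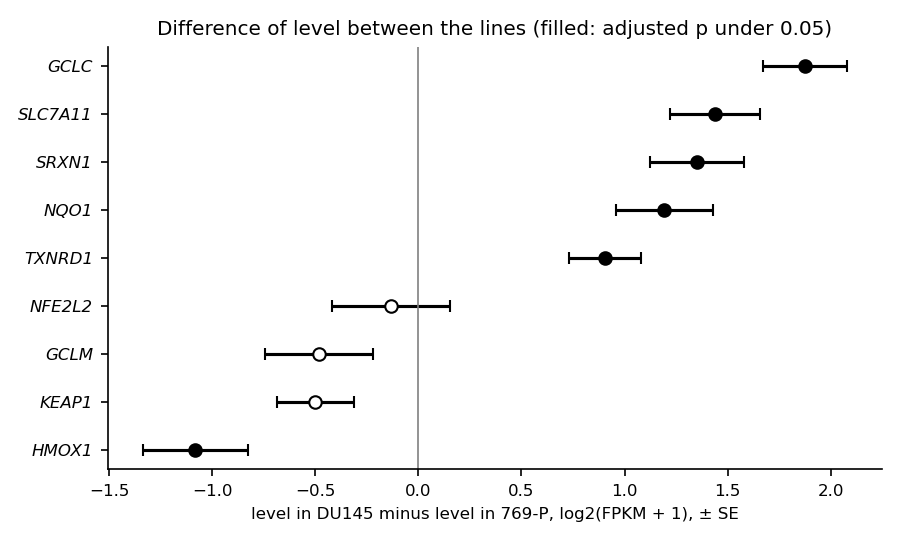
Level in DU145 minus level in 769-P for each gene on the log2(FPKM + 1) scale (horizontal axis) with its standard error from limma, filled where the adjusted p was under 0.05. GCLC at 1.87 is the farthest to the right, HMOX1 at -1.08 the farthest to the left, and the open points of NFE2L2, GCLM and KEAP1 lie between -0.50 and -0.13.

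The 3 genes with the most similar profile over the 6 libraries were taken for each member with a range of at least 1, by the mean absolute difference of log2(FPKM + 1) centred on the gene's own mean. For NFE2L2 they were CDS1 (0.04), HMGN1 (0.07) and SMARCAD1 (0.08), and for GCLM they were RAPGEF6 (0.06), ELOVL7 (0.08) and KIF20B (0.09). HMOX1 was nearest to MRPL1 (0.06), ARNTL2 (0.09) and PSMB10 (0.10). NQO1 was nearest to CNIH1 (0.08), TAF1D (0.11) and the pseudogene PFN1P2 (0.11), and GCLC to APLP2 (0.10), POLE2 (0.11) and DOCK5 (0.12). SRXN1 was nearest to OASL (0.07), LRP11 (0.09) and NEDD4 (0.09), and SLC7A11 to NEDD4 (0.10), TRAF5 (0.10) and ERN1 (0.11). OASL had 0.10 and 0.20 FPKM, TRAF5 0.21 and 0.55, and ERN1 0.16 and 0.39 with si1 and si2 in 769-P, near the floor. Nearness of profile was not tested. Among those of TXNRD1 were TRIM14 (0.20) and GCH1 (0.20). Within the set the closest were SRXN1 and SLC7A11 (0.13), NQO1 and SRXN1 (0.14) and NFE2L2 and GCLM (0.21).

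Other genes of the pathway were taken from lists drawn up by function. Of 18 regulators of NRF2, 17 were tested, and their median change was -0.05 in DU145 and -0.06 in 769-P. CUL3, the scaffold of the ligase, had 9.30, 8.38 and 8.35 FPKM in the control, si1 and si2 libraries of DU145 and 10.9, 11.4 and 8.52 FPKM in those of 769-P. SQSTM1, which encodes p62, a protein that sequesters KEAP1 and is itself an NRF2 target, stood at 854 FPKM with the control siRNA of 769-P and at 495 and 547 with the SPOP siRNAs. It was past 1.5-fold lower with both there, and in DU145 it had 591, 346 and 497 FPKM. NFE2L3, a relative of NFE2L2, was past 1.5-fold lower with both siRNAs in DU145, with 21.6 FPKM in the control and 14.0 and 13.3 with the siRNAs. NFE2L1, another relative, was higher in all 4 siRNA libraries, as were 20.1% of all genes tested. It had 45.8, 72.1 and 63.3 FPKM in DU145 and 38.6, 65.6 and 57.4 in 769-P for the control, si1 and si2. NFE2L1 was named after its values were seen.

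Of 24 glutathione and thioredoxin enzymes, 23 were tested, and in 769-P 16 were lower and 5 higher with both siRNAs, against 39.5% and 31.5% of all genes. In DU145 6 were lower and 7 higher, against 22.2% and 43.5%. The median change was -0.33 in 769-P and 0.04 in DU145. GSR, glutathione reductase, was past 1.5-fold lower with both siRNAs in 769-P, with 87.2 FPKM in the control and 39.4 and 44.4 with the siRNAs. In DU145 it had 92.4, 46.9 and 80.9 FPKM, so that si1 again gave the lower value. GSTM4, a glutathione transferase, stood at 20.0 FPKM with the control siRNA of 769-P and at 11.5 and 10.7 with the SPOP siRNAs. GSTM2, of the same family, was past 1.5-fold higher in DU145, with 1.21 FPKM in the control and 2.92 and 2.68 with the siRNAs, and reads can be split uncertainly among such close copies.

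Of 33 other genes linked to NRF2 for detoxification, iron and NADPH supply, 29 were tested, and in 769-P 19 were lower and 3 higher with both siRNAs, against 39.5% and 31.5% of all genes, with a median change of -0.27. In DU145 2 were lower and 8 higher with both, shares below the 22.2% and 43.5% of all genes, and the median was -0.20 with si1 and 0.43 with si2. AKR1B10, AKR1C1 and AKR1C2, aldo-keto reductases that act on carbonyls and steroids, were past 1.5-fold lower with both siRNAs in 769-P. AKR1B10 had 11.4 FPKM in the 769-P control, 0.417 with si1 and 6.71 with si2. AKR1C1 had 54.3, 8.82 and 31.8 FPKM and AKR1C2 had 18.1, 4.32 and 8.10 FPKM in the same order. The AKR1C genes are near-identical, so their reads may be shared among them and each value is uncertain. EPHX1, the microsomal epoxide hydrolase, was past 1.5-fold lower in 769-P with 38.3, 19.6 and 19.0 FPKM, whereas in DU145 it had 83.9, 66.1 and 126 FPKM.

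Neighbouring programs had medians nearer to 0 or above it. Of 11 ATF4 genes, the amino acid response that also drives SLC7A11, the median change was 0.55 in DU145 and 0.26 in 769-P, above that of all genes. TRIB3, a pseudokinase of that response, was past 1.5-fold higher in DU145, with 60.7 FPKM in the control and 111 and 107 with the siRNAs. For 9 superoxide and peroxide enzymes it was 0.28 and -0.06, and PRDX4, a peroxiredoxin of the endoplasmic reticulum, was past 1.5-fold higher with both siRNAs in both lines. PRDX4 had 40.3, 75.4 and 64.9 FPKM in DU145 and 51.8, 89.9 and 82.2 in 769-P. No gene of these 5 lists passed the limma test for knockdown in either line, and these counts are descriptions set beside those of all genes.

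**Figure D4:**
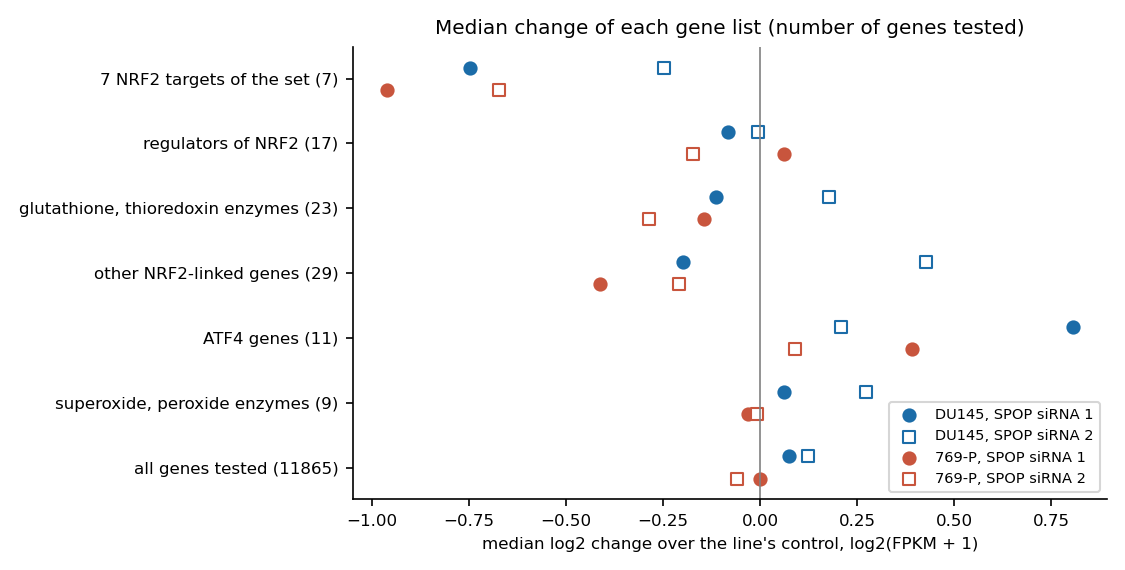
Median change on the log2(FPKM + 1) scale (horizontal axis) of each gene list, with its number of genes tested, for si1 (filled circles) and si2 (open squares) in DU145 (blue) and 769-P (red). The 7 targets lie lowest of the lists in every library, from -0.25 with si2 in DU145 to -0.96 with si1 in 769-P, and the ATF4 genes lie to the right of 0 in all 4.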

How the data were processed

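RNA-Seq of the 6 libraries was read from the deposited FPKM values, 1 per gene and library. Per the labels and the study's methods, the authors aligned paired reads of 100 bp to hg19 with TopHat2, allowing 2 mismatches, and computed FPKM with Cufflinks, and the submitters' processing notes also list cutadapt and FastQC. Tool versions, annotation and whether counting used strand are not given in the sources used here, so reads of NFE2L2, NQO1, GCLC, SRXN1 and SLC7A11 cannot be told from those of genes with overlapping exons. The study's methods state 2 biological replicates per sample, whereas the labels give 1 library each, and the 2 siRNAs of a line were taken as its replicates. FPKM keeps no counts, so only relative depth is known, from the commonest step between low values of 2 libraries.

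Values under 1 symbol were summed, 1 was added and log2 taken, and limma 3.58.1 in R 4.3.3 was fitted with 4 groups and a trend to the 11865 genes that averaged 1 FPKM or more. Tested on simulated data for DU145 in which 200 genes had a log2 change of 2, it recovered 199 when spread followed mean expression and 56 when each gene kept its own spread. False calls numbered 8 and 3. The largest limma changes of the set were smaller, at -0.71 for NFE2L2 in DU145 and -1.40 for TXNRD1 in 769-P. Recovery at such sizes was not simulated. The fold call needs both siRNAs past 1.5- or 2-fold in 1 direction. The siRNA numbers pair the lines only in that they name the same siRNA, and differences between siRNAs correlated across genes between the lines with r = 0.27 in 2 pairs. Alternatives were quantile normalization, median centring, a pseudocount of 0.1, a floor of 5 FPKM on the mean or none, a replicate block, no trend, background subtraction and each siRNA left out. The genes named are the 9 members, SPOP, list genes past 1.5-fold with both siRNAs in a line, the 3 per list that differ most between the lines, and the 3 nearest profiles, of which 1 is not reported here. Members and lists were chosen with earlier results of these data known. Counts with each siRNA alone and counts of sides without a fold limit were added after the values were seen. Gene positions came from GENCODE on GRCh37 and promoters from RefSeq.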

Additional observations from a re-analysis of the deposited data

Results flagged for a closer look

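TXNIP, which encodes an inhibitor of thioredoxin, was picked out because its values moved to opposite sides in the lines. It was above the control in DU145 by 0.61 with si1 and 0.14 with si2, and below it in 769-P by values of -0.48 and -0.60, on the log2(FPKM + 1) scale. The DU145 change exceeded the 769-P change by 0.91, and this difference did not pass the limma test (adjusted p = 0.999). The values were 0.522, 1.33 and 0.675 FPKM in DU145 and 10.1, 6.96 and 6.34 FPKM in 769-P for the control, si1 and si2 libraries. Those of DU145 were near the floor, as the mean over olfactory receptor genes in the DU145 control was 0.345 FPKM. TXNIP was not alone, since FTH1, IDH1, MGST1, GSTM1, DDIT3, ABCC1, GSS, CAT and PALB2 also lay on opposite sides with both siRNAs. These genes were named after their values were seen, and the share of all genes with this pattern was not counted. For MGST1 the DU145 change exceeded the 769-P change by 0.91 as well. FTH1 changed by 0.43 and 0.22 in DU145 and by -0.25 and -0.54 in 769-P. IDH1 changed by 0.45 and 0.69 in DU145 and by -0.19 with each siRNA in 769-P.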

How the results depend on the processing

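No gene of the set passed the knockdown tests under any alternative, and the lowest adjusted p of a member ranged from 0.449 to 0.935 in DU145 and from 0.267 to 0.955 in 769-P. The direction in 769-P held for all 9 genes in all 107 values computed. The siRNA number as a replicate block gave that lowest value of 0.267 for TXNRD1 and 8 genes that differed between the lines, against 6. With a library left out, changes of sign gave a range from -0.42 to 0.29 for NQO1 and from -0.17 to 0.23 for GCLC in DU145. GCLC there was also -0.13 after quantile normalization and -0.097 after centring. Differences of the change between the lines, none of which passed, ranged with a library left out from -0.56 to 0.36 for NFE2L2, from -0.302 to 0.35 for HMOX1, from -0.13 to 0.48 for SRXN1 and from -0.32 to 0.16 for SLC7A11. They also turned for HMOX1 to -0.18 after quantile normalization and after centring, for SRXN1 to -0.030 after centring, and for SLC7A11 to 0.19 with a pseudocount of 0.1 and 0.051 after background subtraction. The level of NFE2L2 in DU145 against 769-P ranged from -0.36 to 0.097 with a library left out. With a library left out, 2 to 7 genes differed between the lines, and 4 did so with no filter. The count past 1.5-fold lower in DU145 rose from 0 to 1 with a pseudocount of 0.1, quantile normalization or centring, and was 1 to 5 with a single siRNA, when 0 to 1 were past 2-fold lower. With a single siRNA, 1 to 3 genes were higher in DU145 at any size and 0 to 1 at 1.5-fold, and in 769-P 4 to 8 were past 1.5-fold lower and 1 to 3 past 2-fold lower. All 769-P libraries exceeded all DU145 libraries for 2 genes, against 1, after quantile normalization or centring, and for 1 to 2 with a library left out. The cause was not tested.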

Other observations

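Standing levels of the list genes were compared between the lines by limma over control and siRNA groups, a test passed by 42.1% of all genes, 3175 of 11865 being higher in DU145 and 1819 in 769-P. Of the 23 glutathione and thioredoxin enzymes, 7 were higher in DU145 and 7 in 769-P. GSTP1, a glutathione transferase, had 111, 76.9 and 119 FPKM in DU145 and 1.86, 0 and 1.31 FPKM in 769-P for the control, si1 and si2 libraries (difference 5.64, adjusted p = 0.000498). GSTA4, of the alpha class, was higher in DU145 by 1.82 (adjusted p = 0.00175), and GLRX, glutaredoxin, by 1.62 (adjusted p = 0.00892).

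Of the 29 detoxification, iron and NADPH genes, 8 were higher in each line. AKR1C3 had 14.0, 12.1 and 27.9 FPKM in DU145 and 277, 141 and 242 FPKM in 769-P (difference -3.73, adjusted p = 0.00154), and AKR1C1 differed by -3.42 (adjusted p = 0.0142). ABCC2, an exporter of conjugates, differed by -3.11 (adjusted p = 0.00271), with 61.5 FPKM in the 769-P control and 6.57 in the DU145 control. Of the 11 ATF4 genes, 8 were higher in DU145 and 1 in 769-P. PHGDH, the first enzyme of serine synthesis, had 112, 208 and 154 FPKM in DU145 and 0.690, 0 and 0.976 FPKM in 769-P (difference 6.53, adjusted p = 0.000293). CHAC1, which degrades glutathione, was higher in DU145 by 3.59 (adjusted p = 0.000388), and DDIT4, an inhibitor of mTORC1 signalling, by 2.74 (adjusted p = 0.00604).

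Of the 17 regulators, 3 were higher in DU145 and 2 in 769-P, a smaller share than among all genes. MAFK, a small MAF partner of NRF2, was higher in DU145 by 1.43 (adjusted p = 0.00449), as was SYVN1, another ubiquitin ligase reported for NRF2, by 1.20 (adjusted p = 0.00364), while AMER1 differed by -1.0 (adjusted p = 0.00769). Of the 9 superoxide and peroxide enzymes, 1 was higher in DU145 and 2 in 769-P, also a smaller share. PRDX2, a cytosolic peroxiredoxin, had 127, 87.7 and 153 FPKM in DU145 and 1.93, 0 and 1.53 FPKM in 769-P (difference 5.82, adjusted p = 0.000603). SOD2 differed by -0.48 (adjusted p = 0.0494) and TXNIP by -2.41 (adjusted p = 0.00096).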
